A study of Mus musculus with 10 samples.

Results

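FBB1.10 is a subclone of mouse erythroleukemia (MEL) cells that stably expresses FLAG-Biotag-BCL11A, the transcription factor BCL11A carrying a FLAG epitope and a biotin acceptor tag. It was compared with its parental Mel-BirA line, which expresses BirA, a biotin ligase of bacteria, and no tagged BCL11A. FBB1.10 carries BirA as well, so the ligase is common to both lines. The comparison takes the 2 arrays titled as FBB1.10 and the 2 titled as the parental line, which are 4 of the 10 Affymetrix Mouse Genome 430 2.0 arrays of the series. The remaining 6 arrays belong to 3 further subclones with the same tagged protein (FBB1.5, FBB1.7 and FBB1.11, 2 arrays each). FBB1.10 is 1 clone, so what this clone acquired during its derivation and what the tagged protein does cannot be told apart. The labels name no treatment, and no source used here gives the promoter that drives the tagged protein. Of 45037 non-control probe sets, 25061 were tested because their intensity exceeded the median of the table, 30.5, on at least 2 of the 10 arrays.

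MEL cells, red cell precursors transformed by the Friend virus, express an immature erythroid programme. BCL11A is a zinc finger repressor best known for silencing fetal and embryonic globin genes in adult red cell precursors, together with partners such as the NuRD complex. Secreted and membrane proteins are folded in the endoplasmic reticulum by chaperones and disulfide isomerases. When unfolded proteins accumulate there, the unfolded protein response raises transcription of these folding factors through the sensors ATF6, IRE1 and PERK, and PERK also favours translation of ATF4, a factor that activates genes for amino acid uptake and synthesis.

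The 4 arrays were alike in overall signal, with medians between 29.6 and 31.0. Pearson's r over the tested probe sets was 0.989 between the FBB1.10 arrays, 0.981 between the parental arrays and 0.975 to 0.985 between the lines, across probe sets, which are not independent replicates. The ratio of 3' to 5' actin control signal, which rises as RNA degrades, was 1.80 in parental 2, against 1.22 in parental 1 and 1.12 and 1.17 in FBB1.10. Of 10 erythroid marker probe sets 8 were above background on all 4 arrays, while those of Slc4a1 and Epb42, genes of late red cells, were at or below it. This count alone did not set the class apart. Also above background on both arrays of each line were 4 of 7 granulocyte and macrophage and 2 of 4 B cell probe sets. Of 5 megakaryocyte probe sets 4 were so in the parental line and 2 in FBB1.10. The summed erythroid marker intensity was 9637 to 10847 in parental and 10524 to 11556 in FBB1.10 arrays. Of 4 T and NK cell probe sets none was above background on both arrays of either line, and summed B cell marker intensity was 114 to 144 in parental and 132 to 136 in FBB1.10 arrays. Summed granulocyte and macrophage marker intensity was 541 to 616 and 562 to 601, and that of fibroblast markers 184 to 209 and 183 to 217, in the same order. Summed megakaryocyte marker intensity was 448 to 474 in parental and 407 to 415 in FBB1.10 arrays, with Vwf above background only in the parental arrays and Ppbp on none of the 4. Mast cell markers were expressed in both lines and are described with the genes that fell.

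Bcl11a, the gene introduced in tagged form, was higher in FBB1.10 on 1 of its 6 tested probe sets. On that probe set the intensity was 39.7 and 35.9 in the parental arrays and 233 and 165 in the FBB1.10 arrays. Both FBB1.10 values lie clear of the parental ones, with a log2 difference of 1.98 ± 0.19 (SE, n = 2 arrays per line, limma's adjusted p = 0.00017), or 3.94-fold. Log2 differences here are of log2(intensity + 16), which understates the change of dim probe sets. The brightest Bcl11a probe set read 307 and 347 in the parental arrays and 367 and 342 in FBB1.10, so the lines overlapped there (difference 0.11 ± 0.11, adjusted p = 0.70). The other 4 tested probe sets had differences between -0.14 and 0.26 and did not pass, and 1 more lay below the intensity filter. Whether the tagged transcript is read by these probe sets was not tested. On the probe set that rose, FBB1.10 was above FBB1.5 by 1.18 (adjusted p = 0.0028) and above FBB1.7 by 1.41 (adjusted p = 0.012), while the difference from FBB1.11 was -0.10 ± 0.19 (adjusted p = 0.94).

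FBB1.10 differed from the parental line at 450 of the 25061 probe sets (1.8%), of which 270 (1.08%) were higher and 180 (0.718%) lower in FBB1.10. The rise of the Bcl11a probe set had the largest fitted difference among them, and at the other end stood Cma1, a mast cell chymase. The called probe sets had been read mostly at moderate to high signal, with a median intensity of 929 for the higher and 262 for the lower ones, against 87.3 for all tested. The 2 arrays of FBB1.10 lay on one side of both parental arrays for every called probe set, as they did for 44.5% of all tested probe sets. With quantile normalization 195 were higher and 223 lower, and after median centring of the arrays 188 and 198, so the excess of higher over lower calls depends on the scaling. The calls lean on a variance that is tied to intensity: without that trend only 1 probe set passed, 1 of 6 tested for Phf3 (135 and 115 in parental against 292 and 316 in FBB1.10, adjusted p = 0.031), with 3565 at an unadjusted p under 0.05. Without parental 1, 1194 probe sets passed, and without parental 2, 262 did, while 108 passed without FBB1.10 1 and 113 without FBB1.10 2. With the actin ratio as a covariate 125 passed, and calls named below that ended with it are given beside their results.

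**Figure D1:**
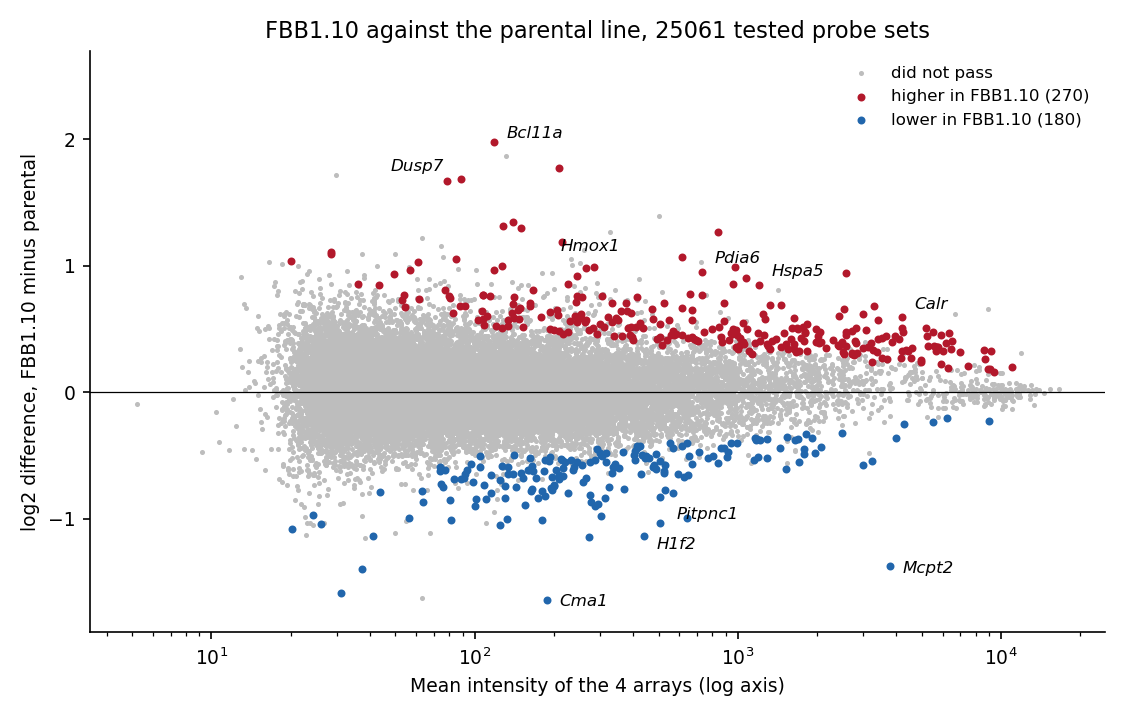
Log2 difference between FBB1.10 and the parental line (vertical axis) against the mean intensity of their 4 arrays (horizontal log axis) for 25061 tested probe sets. Red points (270) were higher and blue points (180) lower in FBB1.10 at an adjusted p under 0.05, grey points did not pass, and small differences passed only at high intensity.

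Folding factors of the endoplasmic reticulum were higher in FBB1.10. Of 21 genes in a list of chaperones, isomerases and unfolded protein response genes, 7 rose and none fell, where 0.936% of all 12502 genes were called higher by their brightest probe set. The median log2 difference of the list was 0.27, against 0.0044 for all genes, and 19 of the 21 differences were above 0, as were 6369 of those of all genes. With the actin ratio as a covariate 5 of the 21 passed. Hspa5, the Hsp70 chaperone BiP that also holds the stress sensors inactive, read 831 and 878 in the parental arrays and 1443 and 1672 in FBB1.10. Its lowest FBB1.10 value thus lay well above the highest parental one, a rise of 0.85 ± 0.089 on the log2 scale (1.80-fold, adjusted p = 0.0003). Hsp90b1, the Hsp90 of the organelle (GRP94), read 984 and 1042 against 1648 and 1631 and rose by 0.69 ± 0.074 (adjusted p = 0.00031). Calr, the lectin chaperone and calcium store calreticulin, read 3215 and 3475 against 4931 and 5156, and rose by 0.59 ± 0.062 (adjusted p = 0.0003). All 3 probe sets of Calr and both of Hsp90b1 passed, as did 2 of 3 for Hspa5.

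The disulfide isomerases moved the same way. Pdia6 had the largest difference of the list, with 438 and 544 in the parental arrays and 874 and 1056 in FBB1.10 (0.95 ± 0.12, adjusted p = 0.00089), though only 1 of its 2 probe sets passed. Pdia3, the isomerase that works with calreticulin and calnexin, read 999 and 952 against 1553 and 1460 (0.62 ± 0.083, adjusted p = 0.0019). Manf, a small secreted stress protein, rose by 0.51 (adjusted p = 0.023) and Canx, the membrane-bound partner of calreticulin, by 0.31 (adjusted p = 0.03). The remaining 14 genes of the list did not pass. Closest was Dnajb11, a co-chaperone of BiP, at 0.41 (adjusted p = 0.051), and the stress transcription factor gene Xbp1 stood at 0.12 on its brightest probe set (adjusted p = 0.65). Counts of 5 to 8 higher genes were found whichever single array was left out, 5 of them without FBB1.10 1.

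Promoters of these genes are known to carry the endoplasmic reticulum stress response element, to which NF-Y and ATF6 bind, so the sequences before their start sites were searched. The motif was CCAAT and CCACG with 9 bases of any kind between them, on either strand, in the 250 bases upstream of the annotated start (RefSeq, GRCm38.p6). It occurs in 37 of 32851 promoters (0.113%), and in 7 of the 19 genes of the folding list with a promoter sequence. Of those 7 genes 5 rose in FBB1.10 (Calr, Canx, Hsp90b1, Hspa5 and Pdia6), while Creld2, at 0.27 (adjusted p = 0.29), and Dnajc3, at 0.26 (adjusted p = 0.34), did not pass. Outside the list, 8 tested genes have the motif and none of them passed, with a median difference of -0.10. Of these, Syvn1 (-0.20), Alg12 (-0.12), Ero1b (-0.087) and Derl3 (-0.039) are also genes of the endoplasmic reticulum, which the list left out. The others were Tdrd9 (-0.47), Adcy3 (-0.19), Acacb (0.11) and Pan2 (0.14). The share of genes with the motif that rose therefore depends on how the list was drawn. A match describes the sequence and does not show that the site is used in these cells. The 7 sequences are shown because they place the motif beside the measured differences, 5′ to 3′ on the strand of the gene, with both conserved blocks of the motif in capitals (CCAAT and CCACG, or CGTGG and ATTGG where it lies on the opposite strand).
Hspa5: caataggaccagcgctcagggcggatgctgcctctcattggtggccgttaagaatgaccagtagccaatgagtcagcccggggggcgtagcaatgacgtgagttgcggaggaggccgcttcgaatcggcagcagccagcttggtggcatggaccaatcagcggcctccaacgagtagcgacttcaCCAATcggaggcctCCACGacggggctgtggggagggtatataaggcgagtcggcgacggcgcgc
Hsp90b1: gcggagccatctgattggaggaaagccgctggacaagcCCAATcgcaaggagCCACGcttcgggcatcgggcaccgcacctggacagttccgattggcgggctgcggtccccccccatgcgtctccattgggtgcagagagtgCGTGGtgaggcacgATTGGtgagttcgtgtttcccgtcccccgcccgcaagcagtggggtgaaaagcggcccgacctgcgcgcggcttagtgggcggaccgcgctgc
Calr: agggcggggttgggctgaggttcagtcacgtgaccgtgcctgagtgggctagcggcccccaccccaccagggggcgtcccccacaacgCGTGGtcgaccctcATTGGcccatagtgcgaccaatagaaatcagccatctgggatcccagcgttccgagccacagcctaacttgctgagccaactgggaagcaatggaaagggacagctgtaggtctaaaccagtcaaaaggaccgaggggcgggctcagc
Pdia6: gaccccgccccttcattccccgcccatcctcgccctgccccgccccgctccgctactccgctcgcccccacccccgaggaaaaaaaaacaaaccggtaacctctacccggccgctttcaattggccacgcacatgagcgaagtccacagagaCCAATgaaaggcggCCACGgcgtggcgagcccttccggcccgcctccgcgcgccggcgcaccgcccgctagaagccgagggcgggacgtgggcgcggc
Canx: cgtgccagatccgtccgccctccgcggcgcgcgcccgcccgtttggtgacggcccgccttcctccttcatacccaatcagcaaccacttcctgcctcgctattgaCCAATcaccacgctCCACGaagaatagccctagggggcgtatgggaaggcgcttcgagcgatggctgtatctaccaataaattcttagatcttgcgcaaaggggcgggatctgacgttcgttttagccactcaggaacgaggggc
Creld2: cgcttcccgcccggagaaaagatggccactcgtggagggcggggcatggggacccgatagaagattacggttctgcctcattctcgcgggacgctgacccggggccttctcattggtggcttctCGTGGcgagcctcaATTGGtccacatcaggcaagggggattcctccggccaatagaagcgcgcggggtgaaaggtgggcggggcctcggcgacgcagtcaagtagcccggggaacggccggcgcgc
Dnajc3: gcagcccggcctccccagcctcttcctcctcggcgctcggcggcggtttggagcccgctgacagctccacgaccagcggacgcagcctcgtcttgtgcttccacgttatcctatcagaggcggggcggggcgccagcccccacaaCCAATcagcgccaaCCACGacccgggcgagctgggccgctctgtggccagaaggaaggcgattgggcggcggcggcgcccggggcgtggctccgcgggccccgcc
The intervals are chr2:34771840-34772089 on the plus strand for Hspa5, chr10:86705445-86705694 on the minus strand for Hsp90b1, chr8:84846932-84847181 on the minus strand for Calr, chr12:17266339-17266588 on the plus strand for Pdia6, chr11:50325674-50325923 on the minus strand for Canx, chr15:88819396-88819645 on the plus strand for Creld2 and chr14:118937682-118937931 on the plus strand for Dnajc3. Hsp90b1 is the gene of the 7 with a pair of motifs, 1 on each strand. Hspa5 has its motif nearest to the start, 65 to 47 bases before it, and Calr, whose motif runs on the opposite strand, has it 162 to 144 bases before the start. Dnajc3, which did not pass, has its motif 105 to 87 bases before the start, a distance within the range of the genes that rose.

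Genes of the ATF4 response, which supply amino acids and one-carbon units, were higher as well. Of 24 genes, 9 rose and none fell (0.936% of all genes rose), with a median difference of 0.29 and 20 above 0. Under quantile normalization or median centring 6 rose, and 3 did without the intensity filter or from the 4 arrays of the 2 lines alone. With the actin ratio as a covariate 4 passed, Slc1a4 and Psat1 not among them (adjusted p = 0.058 and 0.083). Asns, asparagine synthetase, read 2453 and 2650.3 in the parental arrays and 3730.0 and 3477 in FBB1.10, without overlap (0.50 ± 0.067, adjusted p = 0.0019). Slc1a4, a neutral amino acid transporter, had the largest difference, with 186 and 144 against 338 and 309 (0.92 ± 0.15, adjusted p = 0.0052). In the serine pathway Psph, the last enzyme, rose by 0.70 (adjusted p = 0.0045) and Psat1 by 0.35 (adjusted p = 0.017), while Phgdh, the first enzyme, did not pass. Mthfd2, a mitochondrial folate enzyme, rose by 0.42 (adjusted p = 0.018), the stress regulator Nupr1 by 0.48 (adjusted p = 0.019) and the transporter Slc7a5 by 0.34 (adjusted p = 0.042).

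The transcripts of Atf4 itself and of Trib3, a pseudokinase that restrains the response, rose by 0.43 (adjusted p = 0.04) and 0.41 (adjusted p = 0.045). Ddit3 (CHOP), which promotes death under lasting stress, read 1816 and 2174 in the parental arrays and 2668 and 2230 in FBB1.10 and did not pass (0.29, adjusted p = 0.19). Only 2 genes of the list passed without FBB1.10 1 and 4 without FBB1.10 2, so this count rests on both FBB1.10 arrays. Asns passed whichever array was left out, whereas Slc1a4 and Psat1 lost their calls without FBB1.10 1 (adjusted p = 0.071 and 0.16) and Psph without FBB1.10 2 (adjusted p = 0.061). Among the aminoacyl tRNA synthetases, several of which ATF4 also activates, Gars (0.45, adjusted p = 0.0064) and Nars (0.38, adjusted p = 0.028) rose and Qars fell by 0.38 (adjusted p = 0.045), with a median of 0.17 over 19 genes. Nars and Qars did not pass with the actin ratio as a covariate (adjusted p = 0.22 and 0.24). Gars lost its call without FBB1.10 1 (adjusted p = 0.087), Nars without parental 2 or either FBB1.10 array (up to 0.22) and Qars without any of 8 arrays, both parental and both FBB1.10 arrays among them (up to 0.24). Ero1a, the oxidase that recharges the disulfide isomerases, passed on 2 of 3 probe sets but not on its brightest. On the first of them it read 649 and 635 in the parental arrays and 1560.0 and 1073 in FBB1.10 (0.99 ± 0.13, adjusted p = 0.0016).

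**Figure D2:**
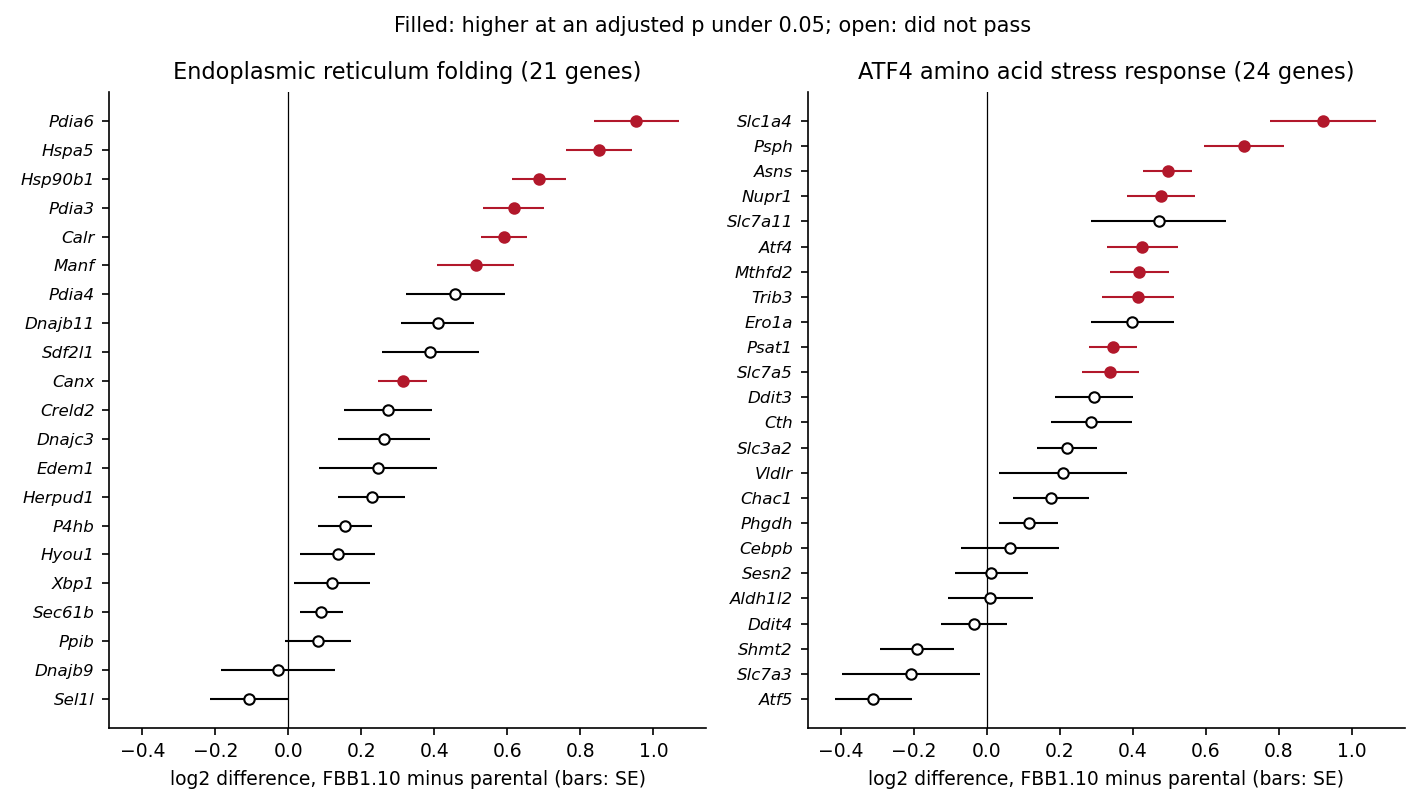
Log2 difference between FBB1.10 and the parental line (horizontal axis, bars give the SE) for each tested gene of the endoplasmic reticulum folding list (left, 21 genes) and the ATF4 list (right, 24 genes), by the brightest probe set. Filled red points passed at an adjusted p under 0.05, 7 on the left and 9 on the right, and 19 and 20 genes lie above 0.

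Several mast cell genes were lower in FBB1.10. MEL cultures can express granule proteases of mast cells beside their erythroid genes. Mcpt2, a mucosal mast cell chymase, read 5974 and 4933 in the parental arrays and 2356 and 1836 in FBB1.10, without overlap. It fell by 1.38 ± 0.12 on the log2 scale (adjusted p = 0.00011). Cma1, the connective tissue chymase and its neighbour on chromosome 14, read 324 and 263 against 89.2 and 76.2 and fell by 1.64 ± 0.21 (adjusted p = 0.0013). Gzmb, granzyme B, decreased by 0.66 (adjusted p = 0.028) and Cpa3, the mast cell carboxypeptidase, by 0.75 (adjusted p = 0.038).

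These were 4 of 7 tested genes of the mast cell and basophil list, none rose, and the median difference was -0.66, where 0.872% of all genes were called lower. Over the 7 genes the median difference from the parental mean was -0.59 and -0.79 on the FBB1.10 arrays. It was -0.53 and -0.62 on those of FBB1.7, -0.90 and -0.66 on those of FBB1.11 and 0.025 and -0.28 on those of FBB1.5. With the actin ratio as a covariate 2 of the 7 passed, and Gzmb (adjusted p = 0.18), Cpa3 (0.21) and Gata2 (0.14), described next, did not. Gzmb lost its call without parental 2 or either FBB1.10 array (adjusted p at most 0.21), and Cpa3 without those, parental 1 or either FBB1.11 array (at most 0.21), whereas Mcpt2 and Cma1 passed whichever array was left out. Of 9 mast cell markers, 4 (Tpsab1, Fcer1a, Ms4a2 and Hdc) were at or below background on all 4 arrays. Tpsb2 read 38.5 and 38.9 in the parental arrays and 32.3 and 43.2 in FBB1.10, so the lines overlapped there. Kit read 36.3 and 36.8 against 25.3 and 29.2, the latter below background. The summed marker intensity was 5400.3 to 6527 in parental and 2075 to 2597 in FBB1.10 arrays, most of it from Mcpt2. In bulk RNA fewer cells of a type and less RNA per cell cannot be told apart. Gata2, a transcription factor of mast cells and early progenitors, read 268 and 261 in the parental arrays and 176 and 163 in FBB1.10 and fell by 0.60 (adjusted p = 0.023), a call that ended without parental 2 or either FBB1.10 array (at most 0.16).

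Among the 12 genes with the largest rises on their brightest probe set were the stress and red cell genes Hmox1 and Sptb. Hmox1, the heme oxygenase that degrades heme and is induced by oxidative stress, read 164 and 179 in the parental arrays and 405 and 311 in FBB1.10 (0.98 ± 0.13, adjusted p = 0.0013). Sptb, the beta-spectrin of the red cell skeleton, read 214 and 157 against 430 and 338 (0.99 ± 0.19, adjusted p = 0.019), on 1 of 2 probe sets. Cda, cytidine deaminase, read 70.4 and 80.3 against 149 and 176 (0.97 ± 0.13, adjusted p = 0.0017). The lines did not overlap for any of these, which the choice of the 12 required.

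Dusp7, a phosphatase that inactivates ERK kinases, read 56.3 and 14.2 in the parental arrays and 93.6 and 191 in FBB1.10. With 1 parental array at or below the table median, Dusp7 was at least 3.22-fold higher in FBB1.10 by the line means (adjusted p = 0.024). The nearest arrays of the lines, at 56.3 and 93.6, lay closer than that. Only 1 of 2 Dusp7 probe sets passed. Fbp2, a fructose bisphosphatase, rose by 0.80 (adjusted p = 0.011), Srprb, a subunit of the receptor for signal recognition particle on the endoplasmic reticulum, by 0.77 (adjusted p = 0.028) and Kctd9 by 0.72 (adjusted p = 0.017). Srprb passed on 1 of 3 probe sets and Dclk2, described next, on 1 of 2. The kinase gene Dclk2 rose by 0.76 (adjusted p = 0.048) and 6820431F20Rik by 1.30 (adjusted p = 0.038), and Pdia6, Slc1a4 and Hspa5 completed the 12. Of these, Hmox1, Cda, Pdia6 and Hspa5 passed whichever array was left out, and the other 8 did not pass with the actin ratio as a covariate. Dusp7 lost its call without parental 2 or FBB1.10 2 (at most 0.21), Sptb without parental 2 or FBB1.10 1 (at most 0.18), Slc1a4 without FBB1.10 1 (0.071) and Fbp2 without FBB1.10 2 (0.13). Srprb and Kctd9 lost theirs without parental 2 or either FBB1.10 array (adjusted p up to 0.21), as did 6820431F20Rik and Dclk2, which also needed both FBB1.11 arrays and, for Dclk2, both of FBB1.7 (adjusted p up to 0.31).

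The 12 largest falls, chosen in the same way, began with Cma1 and included further genes of signaling and chromatin. H1f2, a linker histone, read 555 and 670.1 in the parental arrays and 293 and 245 in FBB1.10 and fell by 1.14 ± 0.15 (adjusted p = 0.0014), on 2 of 3 probe sets. Ndrg1, a gene induced by hypoxia and differentiation, read 866 and 839.8 against 500.1 and 353 and fell by 0.99 ± 0.14 (adjusted p = 0.0023), with 4 of 5 probe sets lower. Pitpnc1, a phosphatidylinositol transfer protein, read 678 and 689 against 333 and 318 and fell by 1.03 ± 0.11 (adjusted p = 0.00031), on 2 of 9 probe sets. For each of these 3 genes the higher FBB1.10 array was far below the lower parental one.

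S100a1, a calcium-binding protein, fell by 1.15 (adjusted p = 0.009), Hnf4a, a nuclear receptor of liver and gut, by 1.01 (adjusted p = 0.023), and so did Plac8, by 0.99 (adjusted p = 0.0064). Ermard fell by 1.05 (adjusted p = 0.045). S100a1, Hnf4a and Ermard each passed on 1 of 2 probe sets. Plxnd1, a semaphorin receptor, was at least 1.32-fold lower in FBB1.10, the taste receptor gene Tas2r119 at least 1.72-fold and 1700047M11Rik at least 1.09-fold, since both FBB1.10 arrays read all 3 at no more than the table median. H1f2, Ndrg1, Pitpnc1, Mcpt2 and Cma1 passed whichever array was left out. With the actin ratio as a covariate 5 of the 12 did not pass, namely S100a1, Ermard, Plxnd1, Tas2r119 and 1700047M11Rik. S100a1 lost its call without FBB1.10 2 (adjusted p = 0.10), Plac8 without either FBB1.10 array (up to 0.059), and Hnf4a, Plxnd1 and Tas2r119 without parental 2 or either FBB1.10 array (up to 0.23). Ermard and 1700047M11Rik each lost theirs without any of 7 arrays, both of FBB1.10 and parental 2 among them (adjusted p up to 0.31). The letters TGACCA, a motif that BCL11A is known to bind, occur within 250 bases upstream of 1 of 9 of the highest and 1 of 9 of the lowest genes with a promoter sequence, against 11.4% of all promoters, on either strand.

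**Figure D3:**
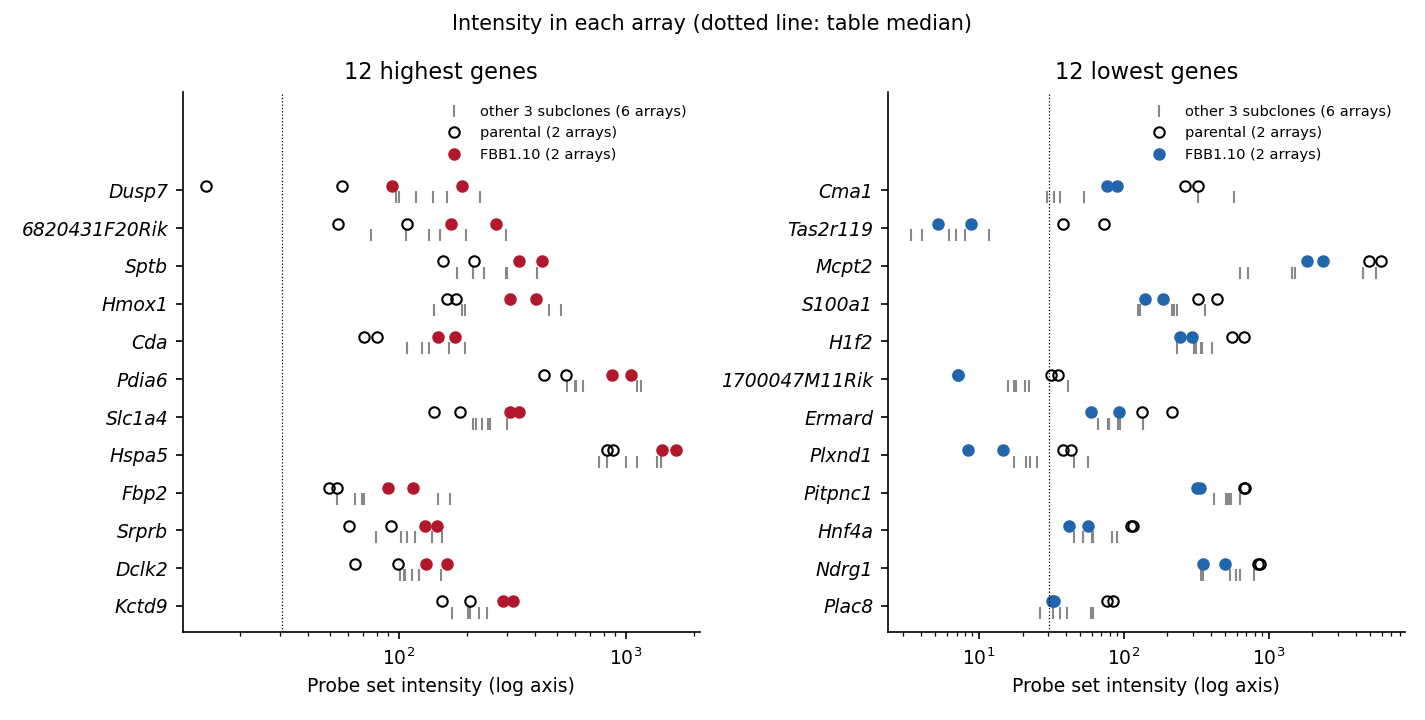
Probe set intensity (log axis) of the 12 highest (left) and 12 lowest (right) genes of FBB1.10 against parental on each array. Open circles are the 2 parental arrays, filled circles the 2 FBB1.10 arrays and ticks the 6 arrays of the other subclones, and the dotted line marks the table median of 30.5, below which Dusp7 has 1 parental array and Tas2r119, 1700047M11Rik and Plxnd1 both FBB1.10 arrays.

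Adult alpha-globin was higher on 1 probe set, and no other globin probe set passed. The brightest probe set of adult alpha-globin, shared by Hba-a1 and Hba-a2, read 1952 and 2376 in the parental arrays and 2752 and 3264 in FBB1.10, a rise of 0.47 ± 0.10 (adjusted p = 0.027). Without parental 1 or FBB1.10 2 the call ended (at most 0.23), as it did under quantile normalization or the actin covariate. The other probe sets shared by these genes were higher without overlap but did not pass. Their differences were 0.41 (adjusted p = 0.12) and, with both parental arrays below the table median, 0.53 (adjusted p = 0.26). A probe set of Hba-a2 alone stood at 0.029 (adjusted p = 0.97). Adult beta-globin, on the probe set shared by its genes, read 865 and 975 against 875 and 923 (-0.03 ± 0.088, adjusted p = 0.91), so the FBB1.10 values lay within the parental range. Hba-x, the embryonic alpha-like gene, read 49.1 and 44.3 against 60.9 and 71.4 (0.39, adjusted p = 0.20). The embryonic beta-like genes Hbb-y and Hbb-bh1 read at most 20.3 on any FBB1.10 array, below the filter, so a change in them was not detectable at this signal.

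Few other erythroid genes passed. None of 20 erythroid transcription factor genes did in limma's test on their brightest probe sets, with 3 at an unadjusted p under 0.05, all lower. The lowest was Foxo3, at -0.49 (adjusted p = 0.058). Of 12 heme synthesis genes, 1 rose, Abcb6, a porphyrin transporter (129 and 151 in parental against 226 and 212 in FBB1.10, adjusted p = 0.035), while Alas2, the erythroid enzyme that starts the pathway, stood at 0.46 (adjusted p = 0.14). Abcb6 lost its call without parental 1 or either FBB1.10 array (adjusted p up to 0.22). Of 13 iron genes, Hmox1 alone passed, and of 11 skeleton genes Sptb alone. Of 15 surface genes 1 rose, Bsg (0.32, adjusted p = 0.045), a call that ended without any of 9 arrays, parental 1 being the exception (adjusted p up to 0.30), or with the actin covariate.

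Red cell cytosolic enzymes rose in 3 of 13 cases, against 0.936% of all genes, and in 1 under quantile normalization, a robust fit or the actin ratio as a covariate. Gpx1, glutathione peroxidase, read 3273 and 3437 in the parental arrays and 4603 and 4530.5 in FBB1.10 (0.44 ± 0.052, adjusted p = 0.00075), and it passed whichever array was left out. Pklr, red cell pyruvate kinase, rose by 0.65 (adjusted p = 0.044) and Car1, a carbonic anhydrase, by 0.16 (adjusted p = 0.05), and these lost their calls without any of 7 and 9 arrays (adjusted p up to 0.28 and 0.23). In both cases either FBB1.10 array was among them, and neither passed with the actin covariate.

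Mitochondrial genes rose in a few members. Of 27 oxidative phosphorylation genes 2 passed (0.936% of all genes rose), both subunits of the catalytic part of ATP synthase: Atp5a1 read 4378 and 4157 in the parental arrays and 6056 and 6079.9 in FBB1.10 (0.51 ± 0.055, adjusted p = 0.00031), and Atp5b rose by 0.48 (adjusted p = 0.00031). Both passed whichever array was left out, and 25 of the 27 differences were above 0, with a median of 0.13. Under quantile normalization 19 were above 0, with a median of 0.043. Ndufa7, a subunit of respiratory complex I that the list left out, was lower on 3 of 5 probe sets. The mitochondrial chaperones Hspd1 (0.37, adjusted p = 0.0042) and Hspa9 (0.42, adjusted p = 0.0097) rose, while the cytosolic Hsph1 decreased by 0.44 (adjusted p = 0.024). Hspd1 lost its call without FBB1.10 2 (adjusted p = 0.059), Hspa9 without parental 2 or FBB1.10 1 (up to 0.13) and Hsph1 without either FBB1.10 array (up to 0.15), and the last 2 did not pass with the actin ratio as a covariate. Over the 16 heat shock genes the median was -0.0017, with 2 higher and 1 lower.

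In the glycolysis and hypoxia list of 20 genes, Pkm (0.33, adjusted p = 0.011) and Ldha (0.19, adjusted p = 0.023), enzymes of the last steps, rose and Ndrg1 fell. Pkm lost its call without FBB1.10 1 (adjusted p = 0.12) and Ldha without either FBB1.10 array (up to 0.14), and neither passed with the actin ratio as a covariate. Igf1r, a growth factor receptor, read 690 and 655 in the parental arrays and 394 and 380 in FBB1.10 on its brightest probe set and fell by 0.77 ± 0.11 (adjusted p = 0.0035), while another of its 4 probe sets rose, so its direction is uncertain. Plk1, a mitotic kinase, rose by 0.42 (adjusted p = 0.046), the only one of 21 mitosis genes to pass. Its call ended without any of 7 arrays, both of FBB1.10 among them (adjusted p up to 0.28). It also ended with the actin covariate, quantile normalization or median centring. Of the 21 differences 19 were above 0, with a median of 0.18. Under quantile normalization 18 were above 0, with a median of 0.17.

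The remaining lists held no gene called on its brightest probe set with 1 symbol by limma's test. Other probe sets of their genes could still pass, as did 1 of Bcl11a, 1 of 2 of Rrm1 in the replication list and the alpha-globin probe set shared by a pair of genes, which the globin list leaves out. These 17 of 34 lists hold 232 tested members, counted once per list. At an unadjusted p under 0.05 stood 3 of 17 genes of NuRD and partner repressors, 2 of 19 G1 cyclins, CDKs and their inhibitors, 3 of 13 of the BCL2 family and 2 of 10 p53 targets. The count was 4 of 22 for ribosomal proteins, 4 of 22 for sterol and fatty acid synthesis, 3 of 21 for DNA replication, 3 of 15 for interferon response and 3 of 12 for immediate early genes. It was 2 of 13 for megakaryocyte, 1 of 11 for granulocyte and macrophage, 1 of 8 for B lymphoid, 1 of 6 for T and NK lymphoid and 2 of 6 for stromal genes. The globin list had 1 of 3 and the globin silencing regulators 1 of 14. Over all tested probe sets, 3866 of 25061 had an unadjusted p under 0.05.

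**Figure D4:**
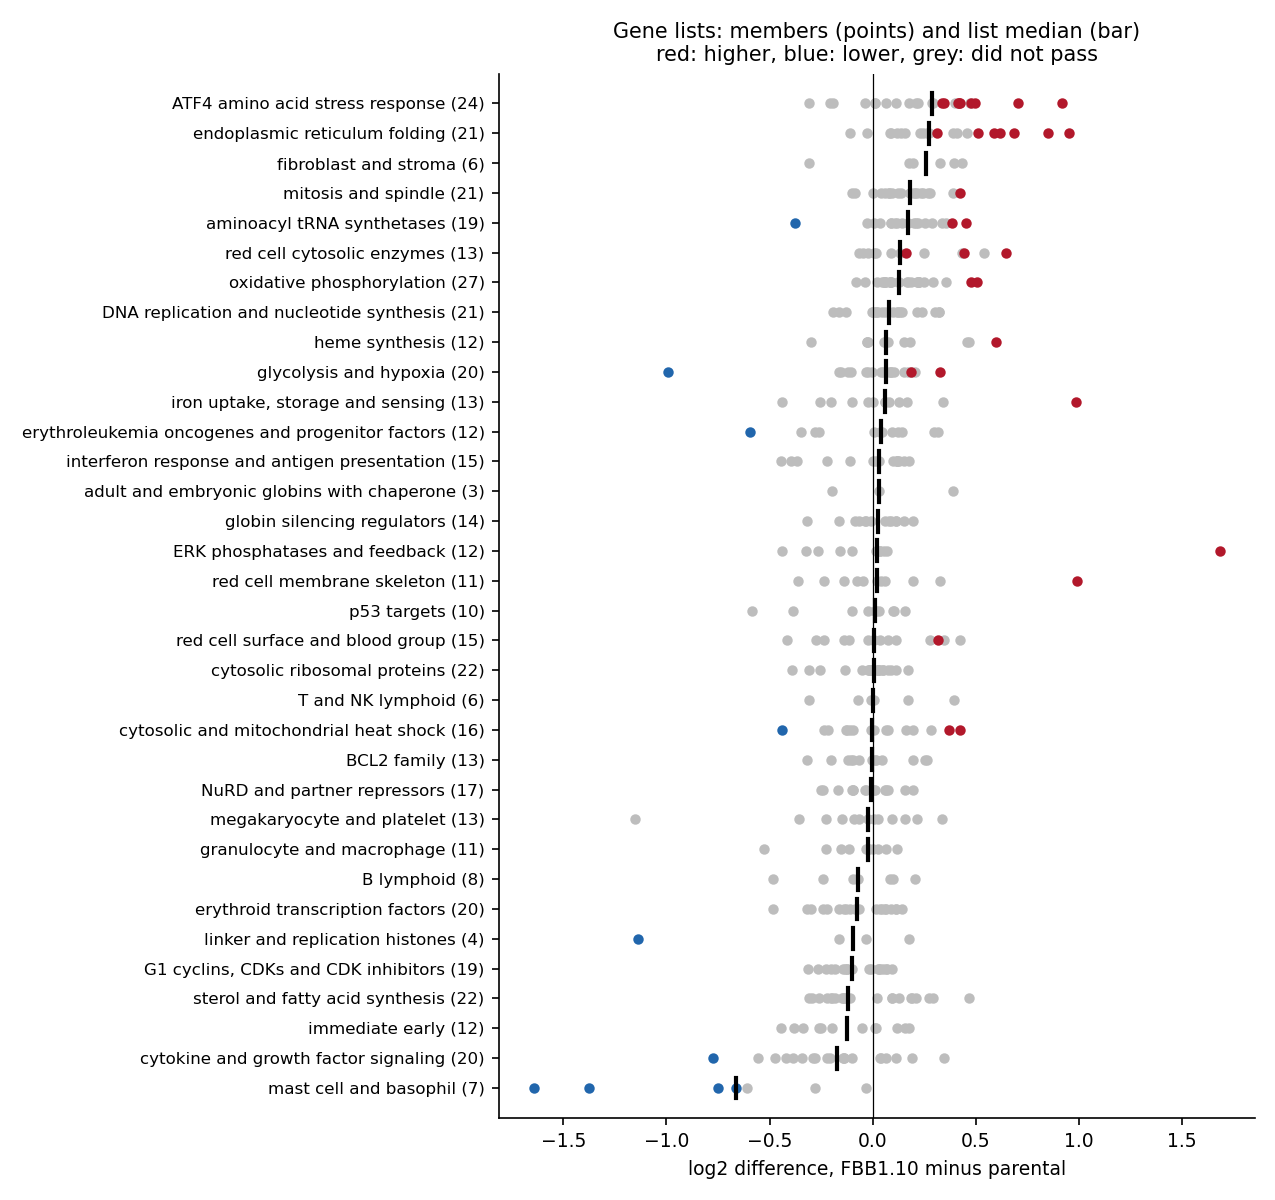
Log2 difference between FBB1.10 and the parental line (horizontal axis) for each tested gene of 34 lists (rows, with the number of genes), by the brightest probe set. Red points rose and blue points fell at an adjusted p under 0.05, grey points did not pass and black bars mark list medians, which are highest for the ATF4 list (0.29) and the endoplasmic reticulum folding list (0.27) and lowest for mast cell genes (-0.66).

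FBB1.10 was then set against the mean of the other 3 subclones, which carry the same tagged protein. This asks which of its transcripts differ from clones of the same kind. In limma's test 29 probe sets passed (0.116%), 21 of them higher (0.0838%) and 8 lower (0.0319%) in FBB1.10, with 2404 at an unadjusted p under 0.05. The count was 10 without both arrays of FBB1.5 and 306 without both of FBB1.7. Against single subclones the counts were 983 (3.92%) for FBB1.5, 67 (0.267%) for FBB1.11 and 31 (0.124%) for FBB1.7.

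Of the 21 folding genes, Hspa5, Calr and Hsp90b1 were higher than in the other subclones, by 0.55 (adjusted p = 0.005), 0.45 (adjusted p = 0.00082) and 0.39 (adjusted p = 0.014). Mean intensities of Hspa5 were 796 in FBB1.5, 1402 in FBB1.7 and 1063 in FBB1.11, so FBB1.7 lay close to FBB1.10. The difference of FBB1.10 from FBB1.7 was 0.15 ± 0.089 for Hspa5 (adjusted p = 0.62), 0.082 ± 0.062 for Calr (adjusted p = 0.71) and -0.12 ± 0.074 for Hsp90b1 (adjusted p = 0.63). Over the 21 genes the median difference from the parental mean was 0.26 and 0.24 on the FBB1.10 arrays, 0.32 and 0.31 on those of FBB1.7, 0.15 and 0.093 on those of FBB1.11 and -0.044 and -0.016 on those of FBB1.5. The call of Hspa5 on its brightest probe set ended without FBB1.10 2 (adjusted p = 0.096) and that of Hsp90b1 without either FBB1.10 array or FBB1.11 1 (up to 0.37), while Calr passed whichever array was left out. Without both arrays of FBB1.5 none of these 3 calls, made on the brightest probe sets, held. A further Calr probe set, 0.53 above the other subclones, kept its call without them.

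Serinc3, a membrane protein gene thought to carry serine into lipids, was higher in FBB1.10 than in every other line. It read 1784 and 1770.0 in the parental arrays, 2601 and 2115 in FBB1.10, and on average 1540.5, 1483 and 1188 in FBB1.5, FBB1.7 and FBB1.11. It rose by 0.40 against parental (adjusted p = 0.036) and was above the other subclones by 0.74 (adjusted p = 0.00024). Against FBB1.5, FBB1.7 and FBB1.11 singly the differences were 0.60, 0.66 and 0.97 (adjusted p = 0.0017, 0.012 and 0.00013). The call against parental ended without any of 6 arrays, parental 2 and FBB1.10 1 among them (adjusted p up to 0.32), and under quantile normalization or median centring. Cmtr1, an mRNA cap methyltransferase, passed both tests as well (0.65 against parental, adjusted p = 0.044, and 0.72 against the subclones, adjusted p = 0.033). It kept its call against parental only without parental 1 (adjusted p otherwise up to 0.30) and lost that against the subclones without any of 7 arrays, up to an adjusted p of 0.73.

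Among genes below both the parental line and the other subclones were Pitpnc1, Creb3l1, Dpp4 and Tex9. Creb3l1 (OASIS), a stress transcription factor that is itself held in the endoplasmic reticulum membrane, read 427 and 388 in the parental arrays and 197 and 201 in FBB1.10. It decreased by 0.98 ± 0.12 against parental (adjusted p = 0.00089) and stood 0.66 below the other subclones (-0.66, adjusted p = 0.011), opposite in direction to the folding genes. Dpp4, a surface peptidase, read 136 and 136 against 67.6 and 62.7 (-0.90 ± 0.12, adjusted p = 0.0016), and its difference from the other subclones was -0.75 (adjusted p = 0.0041). Pitpnc1 differed from them by -0.66 (adjusted p = 0.0081). Tex9, which both FBB1.10 arrays read at no more than the table median, was at least 1.21-fold below their mean (adjusted p = 0.033). This call ended without any of 7 arrays (adjusted p up to 0.57). FBB1.7 read Tex9 at 22.2 and 25.6, also below the table median, and the difference from FBB1.7 singly did not pass (adjusted p = 0.33). Against parental Tex9 was at least 1.20-fold lower (adjusted p = 0.029), a call that ended without parental 2 or either FBB1.10 array (adjusted p up to 0.23). The calls of Creb3l1, Dpp4 and Pitpnc1 against the subclones ended without either FBB1.10 array (adjusted p up to 0.31), that of Dpp4 also without both arrays of FBB1.5, and those against parental held whichever array was left out. With the actin covariate Serinc3, Cmtr1 and Tex9 did not pass against parental.

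**Figure D5:**
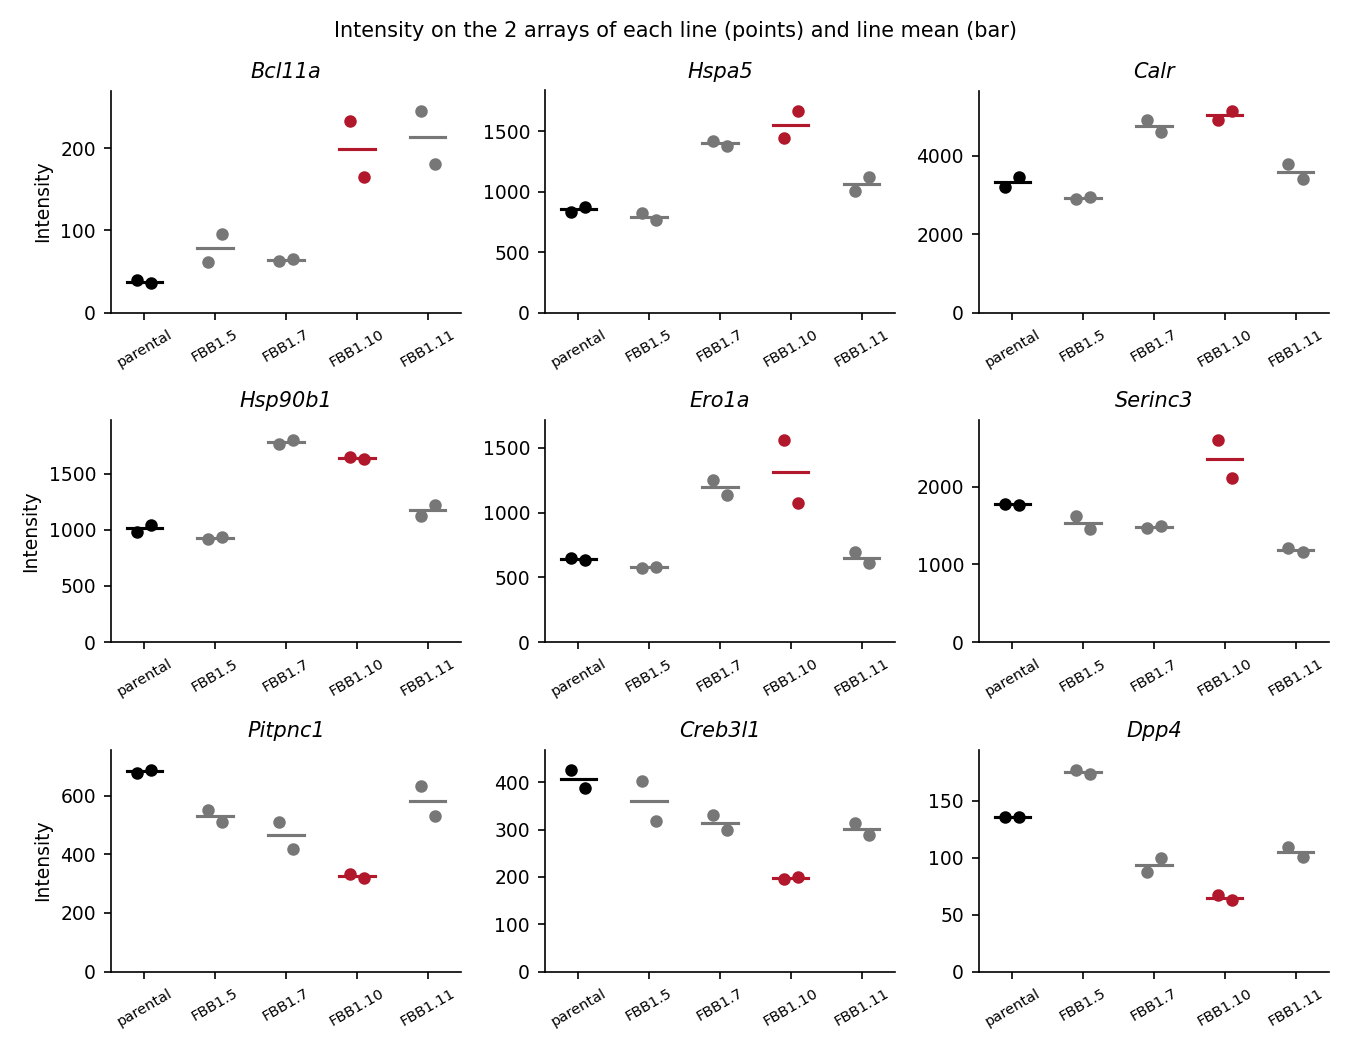
Intensity of 9 genes (vertical axes, from 0) on the 2 arrays of each line (points) with the line mean (bar), FBB1.10 in red and the parental line in black. Bcl11a, Hspa5, Calr, Hsp90b1, Ero1a and Serinc3 were higher and Pitpnc1, Creb3l1 and Dpp4 lower in FBB1.10 than in the parental line, and for the folding genes FBB1.7 lies close to FBB1.10.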

How the data were processed

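Total RNA was reverse transcribed with an oligo-dT primer and transcribed into biotin-labelled cRNA for the arrays, per the labels' protocols. Each deposited value is the linear intensity of a probe set. Their summary, background correction and scaling are not given in the sources used here. Values were taken as log2(intensity + 16), and array medians on that scale differed by at most 0.0623, so no further normalization was applied. No column lacked a sample. Groups come from the titles. The labels do not say whether both arrays of a line come from separate cultures, so p-values reflect only variation between these arrays, which may be technical.

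The 64 control probe sets were left out. The table median, 30.5, served as background. If the dimmer line had an array no brighter than this, the array was raised to the median and the fold, given as at least N-fold, is a bound. Names come from the platform annotation: of the tested probe sets 21193 have 1 symbol, 583 several and 3285 none. Genes were represented by their brightest probe set. Chromosomes and promoter sequences come from RefSeq (GRCm38.p6).

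In R 4.3.3 with limma 3.58.1, a fit of the 5 line means over all 10 arrays pooled the spread within lines (residual degrees of freedom 5, prior 9.92). The prior variance followed intensity, and p-values were adjusted after Benjamini-Hochberg with a threshold of 0.05. FBB1.10 was contrasted with parental and with the mean of the other 3 subclones, and, after the values were seen, with each subclone. Lists were described by counts and medians, without a list test. Named genes are Bcl11a, the globins, the 12 called genes that rose most, the 12 that fell most, up to 4 members per list with the smallest p, and genes that passed both contrasts in one direction. The genes that rose or fell most also had to show no overlap between the lines, which held for every called probe set. The genes and the 34 lists were chosen with earlier results of these data known. Further list members that passed, Xbp1, Phgdh, Ddit3, Dnajb11, Phf3, Morf4l2, Bex4, Ero1a, Creld2, Dnajc3 and the genes in the closing section, were named after their values were seen. So were the genes with the motif outside the folding list. The code was tested on simulated data. Figures were drawn in Python 3.11.15 with matplotlib 3.10.9. The alternatives covered the pseudocount, scaling, filter, variance model, samples in the fit, replicate block, actin ratio, a fold minimum and each array left out.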

Additional observations from a re-analysis of the deposited data

Results flagged for a closer look

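The genes below differed from the parental line and also from the mean of the other 3 subclones, by limma's test of that second difference at an adjusted p under 0.05, so the effect in FBB1.10 was not shared alike by clones with the same tagged protein. Values are log2 differences of FBB1.10 from the other 3 subclones. Calr, the calcium-binding chaperone, stood 0.53, 0.48 and 0.45 above them on its 3 probe sets, and Hspa5 (BiP) 0.63 and 0.55 on 2. Hsp90b1 stood 0.39 above them, Ero1a 0.74 on 1 of 3 probe sets and Cmtr1 0.72. Without FBB1.10 1 the difference of Ero1a was 0.48 and its call ended (adjusted p = 0.31), as it did without both arrays of FBB1.5 or of FBB1.11. Serinc3 stood 0.79 and 0.74 above them on 2 probe sets. Morf4l2, a chromatin protein gene of which all 4 probe sets were higher than in the parental line, stood 0.27 above them on 1 probe set (adjusted p = 0.014), and that call ended without FBB1.5 1, FBB1.11 2 or either FBB1.10 array (adjusted p up to 0.47). Below the other subclones were Dpp4 (-0.75), Creb3l1 (-0.66), Pitpnc1 (-0.66) and Tex9, with a fitted difference of -0.99. Both FBB1.10 arrays read Tex9 at no more than the table median, so it is given as at least 1.21-fold lower, and its call ended without any of 7 arrays (adjusted p up to 0.57). Against FBB1.7 alone, only Serinc3 among these genes passed (adjusted p = 0.012 and 0.017 on those 2 probe sets).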

How the results depend on the processing

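FBB1.10 against parental gave 450 calls. It gave 119 without the intensity filter, 1 without the intensity trend (Phf3), 125 with the actin ratio as a covariate, 1 against a 1.5-fold minimum (Bcl11a, adjusted p = 0.028, with 63 at an unadjusted p under 0.05), 103 from the 4 arrays of the 2 lines alone and 284 without the line FBB1.11. Leaving out single arrays gave 108 (without FBB1.10 1) to 1194 (without parental 1). The other alternatives stayed within 1.5 times the count. Against the other 3 subclones, 29 calls became 15 without the filter, 53 with probe sets above the median on all arrays, 58 with a mean above 100, 1 without the trend and 1 against a 1.5-fold minimum (Bex4 in both, with 2179 and 9 at an unadjusted p under 0.05), 52 with a robust fit, 101 with the actin ratio, 107 without the parental arrays, 10 without FBB1.5 and 306 without FBB1.7, and 11 (without FBB1.10 1) to 107 (without parental 1) with single arrays left out. The lists held 43 calls by the brightest probe set. They held 77 over all probe sets, 19 without the filter, 0 without the trend or against the fold minimum (105 and 11 at an unadjusted p under 0.05 in limma), 22 with the actin ratio, 20 from the 4 arrays alone and 18 to 48 with single arrays left out. The cause of these shifts was not tested. No called value named here reversed its direction under any alternative run, while some values near 0 that did not pass changed sign, such as that of the beta-globin probe set (-0.12 to 0.054 with single arrays left out). Equal array numbers did not pair the lines (r = 0.021 between the deviations of parental and FBB1.10). With the array number as a replicate block 535 probe sets passed against parental, 41 against the other subclones and 47 in the lists. Only 2 arrays per line limit the precision, and genes near the table median, such as Hbb-y, cannot be judged.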

Other observations

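A few genes were read as different from the parental line by 3 or more of their probe sets. There were 10 such genes, named here after their values were seen. Rpn1, a subunit of the complex that attaches sugar chains to proteins entering the endoplasmic reticulum, was higher in FBB1.10 on all 5 of its probe sets, by 0.44 to 0.49 on the log2 scale. Ran, the GTPase of nuclear transport, was higher on 5 of 6 and Slc25a5, the mitochondrial ADP/ATP carrier, on 5 of 8. Morf4l2 was higher on 4 of 4, by 0.33 to 0.42, Calr on 3 of 3 and Serinc3 on 3 of 6. Lower in FBB1.10 were Ndrg1 on 4 of 5 probe sets, Aldh2, the mitochondrial aldehyde dehydrogenase, on 3 of 5, Ndufa7, a subunit of respiratory complex I, on 3 of 5, and Mindy1, a deubiquitinase, on 3 of 7.

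Bex4 did not pass against the parental line in limma's test (adjusted p = 0.28). It read 178 and 175 on the parental arrays and 230.5 and 228 on those of FBB1.10, without overlap. Against the mean of the other subclones Bex4 was at least 3.13-fold higher (adjusted p = 3.6e-05). Singly, it passed against FBB1.5 (1.17 on the log2 scale, adjusted p = 0.00062) and FBB1.11 (adjusted p = 9.5e-08). The difference of 0.67 from FBB1.7 did not pass (adjusted p = 0.098). Its mean intensity was 94.1 in FBB1.5, 139 in FBB1.7 and 14.3 in FBB1.11, the last below the table median. The called genes were spread over the chromosomes, with 0.952% of tested probe sets called on chromosome 16 and 2.87% on chromosome 3, the lowest and highest share of the chromosomes other than Y, which held 9 tested probe sets and no call (1.84% of all tested probe sets with a known chromosome). Of 12430 genes with a known chromosome, 184 had a probe set called higher and 142 had one called lower. Among genes next to each other, 7 pairs were called in the same direction, among them Cma1 with Mcpt2 (lower) and Cmtr1 with Zfand3 (higher). Whether 7 is more than calls scattered at random would give was not tested.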
